A study of Mus musculus with 12 samples.

Results

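The genes described here are 10 markers of primitive endoderm: Gata4, Gata6, Sox17, Sox7, Foxa2, Pdgfra, Dab2, Amn, Cubn and Apoe. They were taken by name, 1 row for each gene, from the deposited tables of mRNA and of long RNA, which hold 36883 rows each. The series compares wild-type mouse embryonic stem (ES) cells, cultured from the early embryo, with Drosha-deficient ES cells. Drosha is a ribonuclease of the nucleus that releases microRNA hairpins from their primary transcripts. Its 12 samples are 9 RNA samples and 3 genomic DNA samples, and 4 RNA libraries are used here: wild-type and Drosha-deficient cells, 1 library each, as mRNA selected by its poly(A) tail and as long RNA. Culture medium held serum and leukemia inhibitory factor (LIF) for both genotypes. The DNA samples of the series name AB1 (129Sv/Ev) cells as the wild type and as the source of the Drosha-deficient cells, while the RNA samples carry no strain label. How Drosha was disrupted, and whether the mutant is 1 clone, the sources used here do not say. The labels call no sample long RNA, so the long RNA table was set to the samples titled total RNA by elimination.

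Primitive endoderm is the epithelium that forms on the surface of the inner cell mass beside the epiblast and gives rise to the yolk sac endoderm. Gata6 and Gata4 head its regulatory network, with Sox17, Sox7 and Foxa2 acting after them, and fibroblast growth factor signals favour it over the Nanog-expressing epiblast. Its differentiated form takes up maternal proteins and lipids, for which it uses the receptor cubilin (Cubn), its membrane anchor amnionless (Amn) and the endocytic adaptor Dab2. ES cells in serum are mostly epiblast-like, and cultures can hold some primitive endoderm-like cells.

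Levels are in FPKM, which are fragments scaled by the length of the transcript and the depth of the library. A pair of values joined by versus gives wild type first and Drosha-deficient second. By estimate the libraries held 18600000 to 24500000 fragments, and 1 fragment on 1 kb of transcript stood for 0.0408 to 0.0539 FPKM. A gene was measured when the authors' table gave it the status OK and 1 of both libraries reached 1 FPKM. It was called lower or higher when its log2 difference, log2 of (Drosha-deficient FPKM + 1) over (wild-type FPKM + 1), reached 1 in either direction (2-fold). Folds given for single genes are plain FPKM ratios. With 1 library per genotype no difference has a replicate check, and there is no test. Drosha itself had 42.1 versus 6.22 FPKM in mRNA and 21.2 versus 4.34 FPKM in long RNA, the direction its label gives.

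The genes of protein and lipid uptake (Dab2, Amn, Cubn) and the lipoprotein gene Apoe were lower in Drosha-deficient cells in both fractions, by 2.07-fold to 6.70-fold. Gata6 was lower in both as well, by 3.20-fold and 8.40-fold, at levels of 0.431 FPKM or less, and Sox7 had the lower value in both at the edge of detection. Gata4 differed in direction between the fractions, and Sox17, Foxa2 and Pdgfra stayed at 0.378 FPKM or less with another sign in each. In mRNA 4 of the 10 genes were measured. Dab2, Amn and Apoe were lower and none was higher, where 7.93% of all 14752 measured rows were lower and 8.64% higher. Amn reached the minimum in the wild-type library only and Gata4 in the Drosha-deficient library only. Each of them thus entered this count through its higher library, while Dab2 and Apoe reached the minimum in both. In long RNA 2 of the 10 were measured; Apoe was lower and none was higher, where 6.89% of 13933 measured rows were lower and 6.26% higher. Median log2 differences were -1.32 over the 4 genes in mRNA and -0.58 over the 2 in long RNA, beside 0.0081 and -0.04 over all measured rows. A list as short as this, with most members under the minimum, is described better by its single genes than by these medians.

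**Figure D1:**
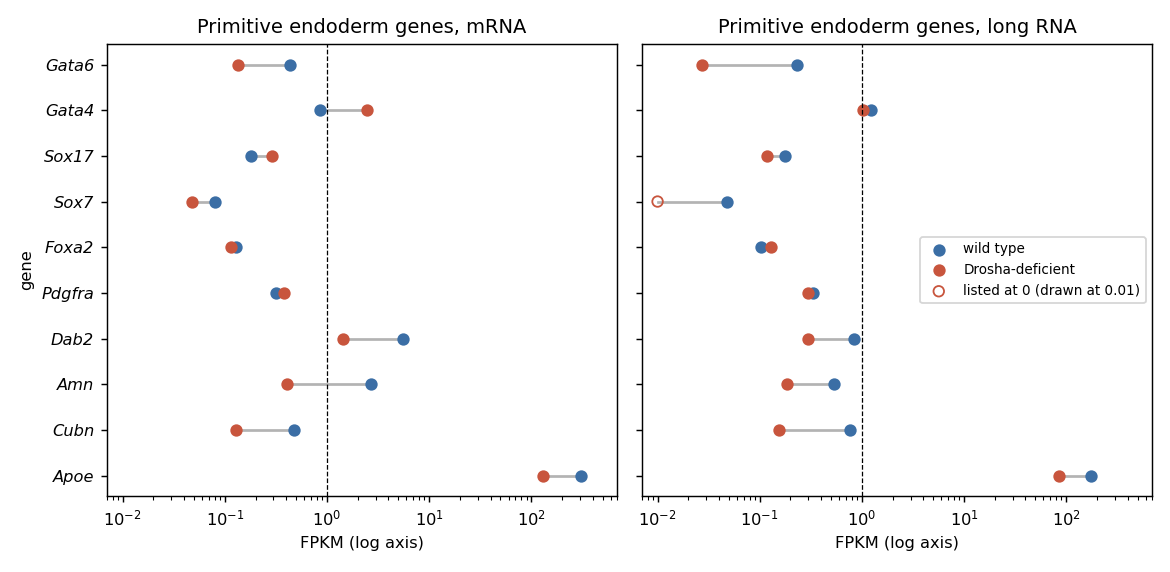
FPKM of the 10 genes (log axis) in the wild-type (blue) and Drosha-deficient (red) library of mRNA (left) and long RNA (right), 1 library per point, with the dashed line at the minimum of 1 FPKM. Apoe lies far above the others, the 4 lowest rows of each panel show the uptake and lipoprotein genes with red left of blue, and Sox7 is listed at 0 in Drosha-deficient long RNA.

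Gata6, the zinc finger factor that starts the primitive endoderm programme, had 0.431 FPKM in wild-type and 0.135 FPKM in Drosha-deficient mRNA. In long RNA it had 0.230 versus 0.0274 FPKM. The Drosha-deficient library was the lower one in both fractions, by 3.20-fold in mRNA, where the authors' status was OK, and by 8.40-fold in long RNA, where it was NOTEST. These folds rest on 9.42 and 3.30 fragments per kb of transcript in mRNA, and on 4.27 and 0.604 per kb in long RNA. Gata6 (chromosome 18, 11049087 to 11085635, mm10/GRCm38) also overlaps the noncoding gene Gata6os, and the sources used here do not say whether counting used strand.

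Gata4, the related zinc finger factor, was the one regulator near the minimum, and its fractions did not go the same way. In mRNA it had 0.855 FPKM in wild-type and 2.45 FPKM in Drosha-deficient cells, 2.87-fold higher, at 18.7 and 60.1 fragments per kb. In long RNA it had 1.22 versus 1.02 FPKM, at 22.6 fragments per kb in both libraries. The log2 difference in mRNA was 0.90, short of the size rule, and 10.3% of measured rows had one as high or higher; in long RNA it was -0.13. Gata4 lies on chromosome 14, 63198922 to 63271692, with no other RefSeq gene overlapping it.

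Like Gata6, the later factors were under the minimum in every library. Sox17, a high mobility group factor of all endoderm, had 0.179 versus 0.291 FPKM (wild type, then Drosha-deficient) in mRNA and 0.177 versus 0.118 FPKM in long RNA. Sox7, its close relative, had 0.0805 versus 0.0474 FPKM in mRNA, and 0.0477 FPKM and a value listed at 0 in long RNA. Foxa2, a forkhead factor of visceral and definitive endoderm, had 0.130 versus 0.115 FPKM in mRNA and 0.102 versus 0.128 FPKM in long RNA. Over these 3 genes and 4 libraries there were at most 7.13 fragments per kb, the authors' status was NOTEST throughout, and no difference could be read at this depth.

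Pdgfra, the platelet-derived growth factor receptor that marks primitive endoderm on the cell surface, had 0.315 versus 0.378 FPKM in mRNA and 0.335 versus 0.300 FPKM in long RNA. It did not reach the minimum in any library, rested on 6.21 to 9.25 fragments per kb with the status NOTEST, and gave no difference that could be read at this depth. Its ligand gene Pdgfa was well above it, at 19.1 versus 17.6 FPKM in mRNA and 7.55 versus 7.76 FPKM in long RNA, with no call in either. Pdgfra is expressed by fibroblasts as well as primitive endoderm. Of the defining regulators and this receptor, Gata4 alone reached 1 FPKM anywhere, at 2.45 FPKM or less. Apart from Gata4, the defining markers do not show the label's cell type above the minimum, and the name stands for the known roles of the genes.

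The genes of uptake came next. Dab2, the clathrin adaptor that lets the epithelium take up receptors with their cargo, had 5.54 FPKM in wild-type and 1.45 FPKM in Drosha-deficient mRNA, 3.82-fold lower. In long RNA it had 0.831 versus 0.297 FPKM, 2.80-fold lower and under the minimum, at 15.4 and 6.53 fragments per kb. The mRNA values rest on 121 and 35.6 fragments per kb. The log2 difference in mRNA was -1.42, and 2.77% of measured rows were as low or lower. Among rows with a wild-type level of 1 to under 10 FPKM, which holds Dab2 and Amn, 9.03% were lower in mRNA. Dab2 (chromosome 15, 6299788 to 6440712) overlaps the noncoding gene Gm16311 and the pseudogene Gm18888.

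Amn, the membrane anchor of cubilin, showed the largest fold of the list in mRNA: 2.73 FPKM in wild-type and 0.407 FPKM in Drosha-deficient cells, 6.70-fold lower. In long RNA it had 0.537 versus 0.185 FPKM, 2.90-fold lower, at 9.97 and 4.07 fragments per kb. The mRNA libraries gave 59.6 and 9.97 fragments per kb, and the log2 difference of -1.41 was reached or passed by 2.87% of measured rows. Amn (chromosome 12, 111271111 to 111276426) overlaps the noncoding gene Gm51960.

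Cubn, the giant receptor for vitamin B12 with intrinsic factor, albumin and apolipoproteins, never reached 1 FPKM and so enters no count above. It had 0.473 FPKM in wild-type and 0.129 FPKM in Drosha-deficient mRNA, 3.68-fold lower, and 0.770 versus 0.156 FPKM in long RNA, 4.93-fold lower. Its status was OK in both tables. Like Gata6 it rests on few fragments, 10.3 and 3.15 per kb in mRNA and 14.3 and 3.44 per kb in long RNA. The fold was larger in long RNA than in mRNA, the reverse of Dab2 and Amn. Cubn (chromosome 2, 13271602 to 13491924) overlaps the noncoding genes Gm13270 and LOC115489436.

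Apoe, the apolipoprotein that carries lipid to receptors of the low density lipoprotein family, was by far the most abundant gene of the list and made up 96.0% to 97.7% of the summed FPKM of all 10 genes in each library. It had 306 FPKM in wild-type and 130 FPKM in Drosha-deficient mRNA, 2.36-fold lower, and 177 versus 85.7 FPKM in long RNA, 2.07-fold lower. Its depth leaves little counting error, with at least 1888 fragments per kb in any library. The log2 differences were -1.23 and -1.04, and 4.66% of measured rows in mRNA and 6.36% in long RNA were as low or lower. Of the 13322 rows measured in both fractions, 4.12% were lower in both, as Apoe was, and 4.58% higher in both. Among rows with a wild-type level of 100 to under 1000 FPKM, 8.08% were lower in mRNA and 16.3% in long RNA. The call in long RNA is narrow: with the median of all measured rows set to 0 the difference is -0.996 and just short of the size rule. Apoe (chromosome 7, 19696109 to 19699166) has no overlapping RefSeq gene. It is also expressed in ES cells, macrophages and many other cells, and its level here is far above that of every defining regulator.

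**Figure D2:**
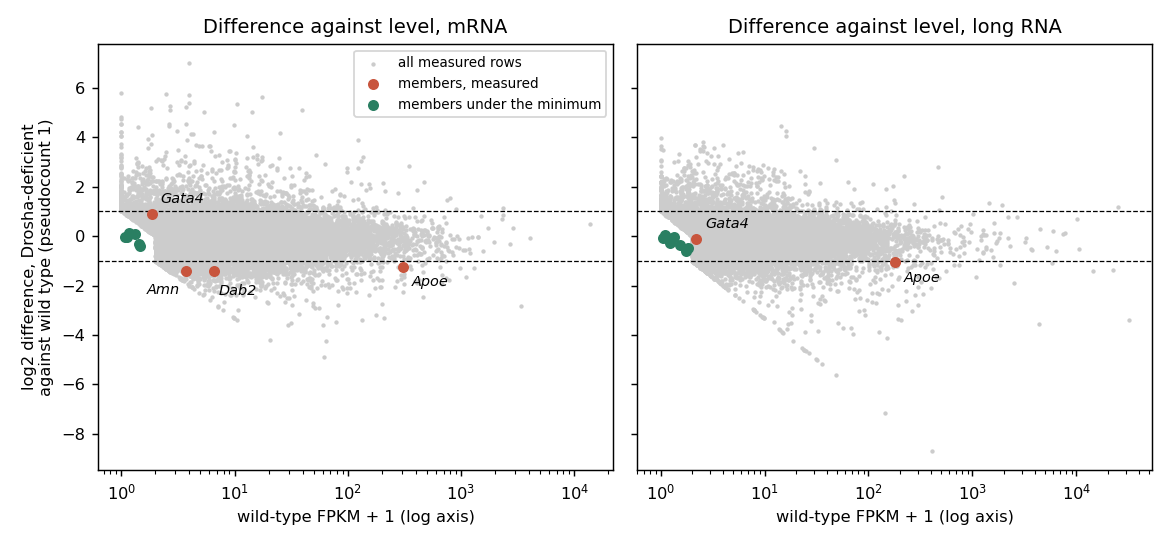
Log2 difference (pseudocount 1) against wild-type FPKM + 1 (log axis) for all measured rows (grey), measured genes of the list (red) and those under the minimum (green), in mRNA (left) and long RNA (right), with dashed lines at the 2-fold rule. In mRNA Amn and Dab2 lie at low level and Apoe at high level below the lower line, within the spread of grey points at their levels; in long RNA Apoe alone lies below it.

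By plain FPKM ratio, which does not shrink low genes, 5 of the 10 genes had the status OK in both tables, and 4 of them (Dab2, Amn, Cubn, Apoe) were at least 2-fold lower in both. Among all 15054 rows with that status and values above 0, 8.77% were at least 2-fold lower in both, and among the 1216 of them under 1 FPKM in wild-type cells in both fractions it was 9.95%. The remaining gene with the status OK in both was Gata4. Besides Dab2, Amn, Cubn and Apoe, Gata6 and Sox7 had lower values in Drosha-deficient cells in both fractions, on at most 9.42 fragments per kb. Gata4, Sox17, Foxa2 and Pdgfra had another sign in each fraction. The share of all rows with lower values in both fractions was not computed. The authors' deposited table gave p-values per row that compare these libraries only; the lowest among the 10 genes was 0.0388, for Apoe in mRNA, and the lowest q-value was 0.999.

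**Figure D3:**
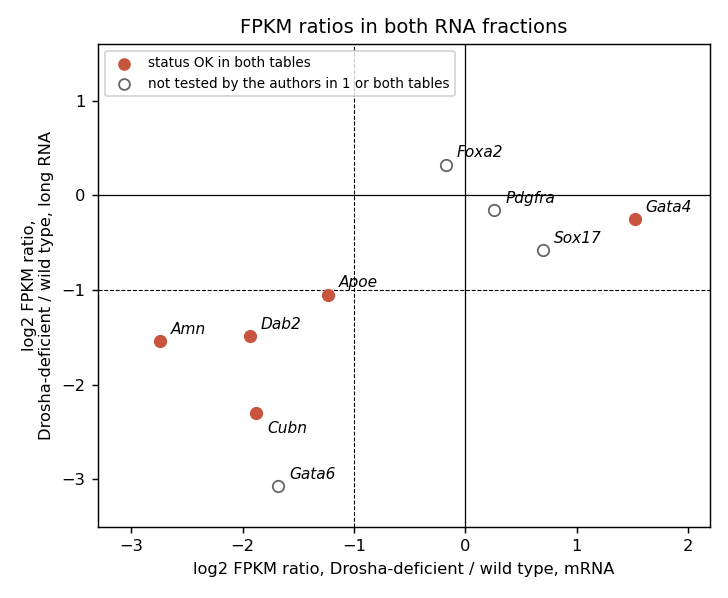
Log2 FPKM ratio of Drosha-deficient over wild-type cells in mRNA (x axis) and long RNA (y axis), 1 point per gene, without a pseudocount; filled points had the status OK in both tables, and Sox7 is left out because it is listed at 0 in 1 library. Amn, Dab2, Cubn and Apoe lie at or below -1 on both axes, Gata6 (open point) does too, and Gata4 lies right of 0 in mRNA and slightly below 0 in long RNA.

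The promoters of these 4 genes are shown because they were lower together and the series concerns CG methylation. Windows before RefSeq (GRCm38.p6) start sites were used for 6 of the 10 genes. The reference held none for Gata4, Sox17 and Sox7, and Gata6 was left out of the promoter search. Each line holds the 250 bases before the start site nearest to the start of the gene's row, 5′ to 3′ on the gene's strand, with CG dinucleotides in capitals.
Dab2, chr15:6299539-6299788, plus strand: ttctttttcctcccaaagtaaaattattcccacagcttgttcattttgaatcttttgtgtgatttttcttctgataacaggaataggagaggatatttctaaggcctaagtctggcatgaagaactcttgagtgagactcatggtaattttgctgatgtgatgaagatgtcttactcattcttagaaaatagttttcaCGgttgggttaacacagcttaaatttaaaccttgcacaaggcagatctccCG
Amn, chr12:111270846-111271095, plus strand: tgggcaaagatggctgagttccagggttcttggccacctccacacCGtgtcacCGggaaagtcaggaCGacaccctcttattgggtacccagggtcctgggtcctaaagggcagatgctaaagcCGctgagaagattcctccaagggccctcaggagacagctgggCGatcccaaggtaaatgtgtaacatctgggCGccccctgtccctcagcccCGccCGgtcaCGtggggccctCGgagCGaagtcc
Cubn, chr2:13491877-13492126, minus strand: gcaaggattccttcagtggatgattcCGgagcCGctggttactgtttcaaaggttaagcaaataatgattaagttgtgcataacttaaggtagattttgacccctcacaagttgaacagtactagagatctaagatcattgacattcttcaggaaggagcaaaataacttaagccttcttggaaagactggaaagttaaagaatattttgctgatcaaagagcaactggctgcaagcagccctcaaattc
Apoe, chr7:19699189-19699438, minus strand: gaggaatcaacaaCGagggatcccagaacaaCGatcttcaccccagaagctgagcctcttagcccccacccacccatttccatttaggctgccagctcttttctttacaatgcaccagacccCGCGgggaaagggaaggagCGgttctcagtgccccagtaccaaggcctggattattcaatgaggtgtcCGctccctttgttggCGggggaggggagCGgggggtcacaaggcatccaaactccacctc
Dab2 and Cubn held 2 CG dinucleotides each, Apoe 8 and Amn 11, beside a median of 6 over 32851 such windows of all genes. Another annotated Dab2 start, within the gene, has a window with 17 CG dinucleotides and no GATA motif. The 4 windows shown are not alike in CG content. The GATA motif, searched as TGATAA or AGATAA on both strands, occurred once in the Dab2 window and not in the others, and 16.6% of all windows hold it. The SOX motif, searched as ACAAT on both strands, occurred once in the Apoe window only, and 27.7% of all windows hold it. The forkhead motif GTAAACA was in none of the 4 windows and is in 3.17% of all. These matches describe letters only, and the methylation of these bases was not analysed here.

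Genes that work with Dab2, Amn and Cubn in endocytosis were mostly called neither lower nor higher. Of 16 partners, all measured, none was lower and 1 was higher in mRNA, with a median log2 difference of 0.39. In long RNA 1 was lower (Lrp8, 3.14 versus 1.04 FPKM) and 1 higher (Cltb, 10.3 versus 25.7 FPKM), with a median of -0.14. Lrp2, or megalin, the large receptor that binds cubilin and shares its cargo, went the opposite way from Dab2, Amn and Cubn. It had 3.44 FPKM in wild-type and 13.9 FPKM in Drosha-deficient mRNA, 4.05-fold higher, and was the higher call there. In long RNA it had 8.05 versus 16.5 FPKM, 2.05-fold higher, with a log2 difference of 0.95, short of the rule. By plain FPKM ratio Lrp2 was more than 2-fold higher in both fractions, while Vldlr and Lrp8 were more than 2-fold lower in both. Vldlr had 2.72 versus 0.923 FPKM in mRNA and 2.06 versus 0.955 FPKM in long RNA. Lrp8 had 6.58 versus 3.10 FPKM in mRNA. The clathrin chains Clta (175 versus 120 FPKM in mRNA) and Cltc (147 versus 204 FPKM) and the adaptor subunits Ap2a1 (77.5 versus 89.5 FPKM) and Ap2s1 (73.0 versus 49.8 FPKM) were called in neither fraction. The clathrin chain Cltb, higher by the rule in long RNA, had 24.4 versus 44.3 FPKM in mRNA, with no call there.

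Genes of visceral endoderm, the part of the lineage that covers the epiblast and makes serum proteins, were mostly under the minimum. Of 21 listed, 9 were measured in mRNA, with 3 lower, 1 higher (Lrp2) and a median of 0.15; in long RNA 6 were measured, with 1 lower, none higher and a median of -0.55. Slc39a8, a zinc and manganese transporter, was lower in both: 3.68 versus 0.167 FPKM in mRNA and 3.60 versus 0.164 FPKM in long RNA. Rbp4, the retinol carrier of serum, had 5.79 versus 1.51 FPKM in mRNA and 2.11 versus 0.649 FPKM in long RNA, lower by the rule in mRNA only. Cited1, a transcriptional coactivator, was lower in mRNA (7.38 versus 3.02 FPKM) and not by the rule in long RNA (2.38 versus 0.839 FPKM). Hhex, a homeobox factor of anterior visceral endoderm, had 6.13 versus 6.93 FPKM in mRNA. The lineage's main secreted products were nearly absent: Afp did not pass 0.0212 FPKM and Ttr 0.0883 FPKM in any library, and Apoa4 was listed at 0 in all 4.

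Basement membrane and parietal endoderm genes, from the branch that lays down the thick membrane around the rodent embryo, were mostly called neither lower nor higher. Of 19 listed, 18 were measured in mRNA, with 2 lower, 1 higher and a median of -0.36, and 15 in long RNA, with 3 lower, none higher and a median of -0.41. Col4a2, a chain of type IV collagen, was lower in both (6.60 versus 2.19 FPKM in mRNA, 5.54 versus 1.20 FPKM in long RNA). Plat, tissue plasminogen activator, was also lower in both, at 2.30 versus 0.592 FPKM in mRNA and 2.15 versus 0.384 FPKM in long RNA. The most abundant genes of the list were called in neither fraction: in mRNA the matrix glycoprotein gene Sparc had 222 versus 219 FPKM, Nid2 64.1 versus 78.3 FPKM, the laminin chain Lamc1 61.8 versus 103 FPKM, and Hspg2 54.8 versus 42.0 FPKM.

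Signals that act before the lineage is chosen went both ways in mRNA. Of 17 measured, 3 were lower and 3 higher, with a median of 0.14; in long RNA 3 of 16 were lower and none higher, with a median of -0.0072. Fgf4, the growth factor that epiblast cells send to future primitive endoderm, had 52.1 versus 108 FPKM in mRNA and 36.4 versus 64.3 FPKM in long RNA, higher by the rule in mRNA only. Its receptor gene Fgfr1 had 49.4 versus 54.8 FPKM in mRNA, and the kinase gene Mapk3 had 61.8 versus 46.1 FPKM; both were called in neither fraction. Etv4, a target of that pathway, was lower in both fractions (21.5 versus 8.0 FPKM in mRNA, 10.4 versus 1.76 FPKM in long RNA). Etv5, a related target, went the opposite way, at 44.1 versus 96.0 FPKM in mRNA, where it was higher by the rule; in long RNA its log2 difference was 0.91, short of the rule. The feedback inhibitors Dusp6 and Spry2 were called in neither fraction (17.7 versus 20.9 FPKM and 26.8 versus 27.1 FPKM in mRNA). Spry4, listed with them, had 18.7 versus 12.7 FPKM in mRNA and 9.23 versus 3.98 FPKM in long RNA, lower by the rule in long RNA only. Dusp4, a phosphatase that restrains the pathway, was lower in both fractions, as Etv4 was (14.3 versus 4.64 FPKM, and 15.8 versus 3.97 FPKM).

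Of the epiblast factors that oppose primitive endoderm, none was lower by the rule in either fraction. In mRNA 3 of 9 were higher, with a median of 0.32, and in long RNA 1 of 8, with a median of 0.23. Prdm14, a repressor that guards the naive state, was higher in both, at 4.05 versus 10.9 FPKM in mRNA and 2.65 versus 7.93 FPKM in long RNA. Klf2 was higher in mRNA (175 versus 393 FPKM) and not by the rule in long RNA (80.5 versus 108 FPKM). Nanog, which represses Gata6 in the epiblast, had 192 versus 207 FPKM in mRNA and 71.2 versus 103 FPKM in long RNA, with no call in either. Klf4 came closest to a lower call, with 10.6 versus 5.30 FPKM in long RNA (log2 difference -0.88), beside 14.8 versus 13.3 FPKM in mRNA. Esrrb had 63.3 versus 43.7 FPKM in long RNA. Pou5f1, the factor shared by epiblast and early primitive endoderm, had 562 versus 700 FPKM in mRNA and 262 versus 260 FPKM in long RNA. Sox2 had 257 versus 299.8 FPKM in mRNA and no row of its own in long RNA.

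**Figure D4:**
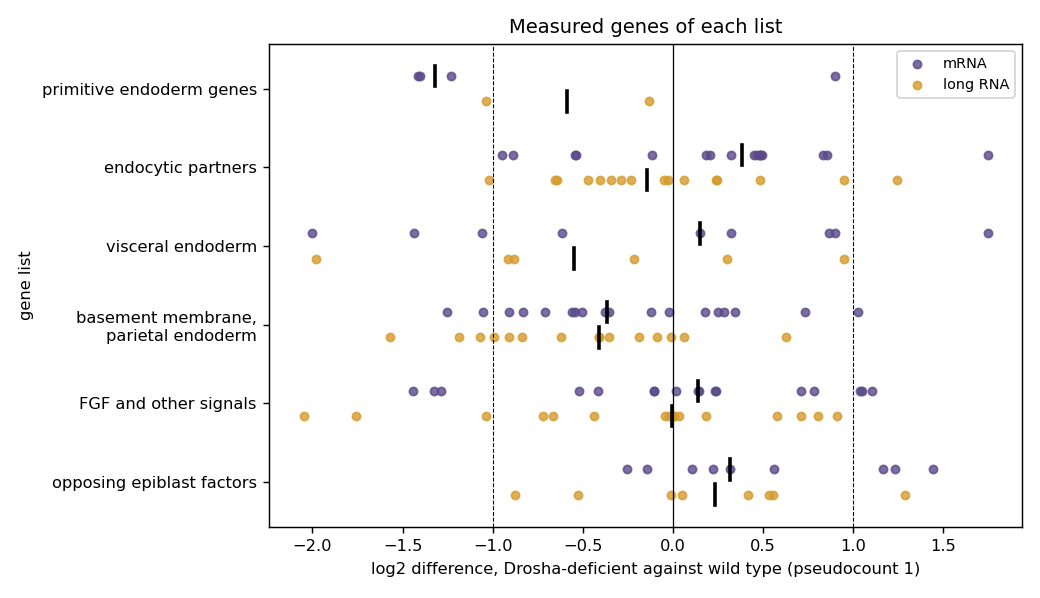
Log2 difference (pseudocount 1) of every measured gene in the primitive endoderm list and 5 related lists, in mRNA (purple) and long RNA (yellow), with black bars at the medians and dashed lines at the 2-fold rule. The primitive endoderm genes hold 4 points in mRNA, 3 of them below -1, while the endocytic partners lie on both sides of 0.

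Markers of other cell types were read beside these values, since bulk RNA cannot tell fewer cells of a type from less RNA per cell. Of fibroblast markers, 8 of 13 measured in mRNA were lower, 7 of 13 measured in long RNA and none higher by the rule; their summed levels were 197 versus 22.7 FPKM in mRNA and 104 versus 11.1 FPKM in long RNA; no marker was at 0 in both libraries of a fraction. Not every marker went this way: Twist1 had 1.68 versus 3.56 FPKM in mRNA and 1.29 versus 2.84 FPKM in long RNA. Dcn, under the minimum, had 0.0752 versus 0.999 FPKM and 0.0296 versus 0.967 FPKM. Dab2 and Apoe are also expressed in fibroblasts, and the part of such signal in their differences was not tested. Of 7 macrophage markers in each table, Cd68 alone was measured (7.97 versus 6.63 FPKM in mRNA); Lyz2 was listed at 0 in both mRNA libraries, and the list summed to 8.96 versus 7.07 FPKM in mRNA and 4.56 versus 4.39 FPKM in long RNA. Mesendoderm and definitive endoderm markers summed to 147 versus 136 FPKM in mRNA and 87.3 versus 63.6 FPKM in long RNA, and T alone was lower, among 6 measured in mRNA and 3 in long RNA. Of trophoblast markers, 4 of 6 measured in mRNA were lower, as were 2 of 4 measured in long RNA, with sums of 47.2 versus 23.5 FPKM and of 23.4 versus 8.30 FPKM. Heart muscle markers, listed because Gata4 and Gata6 act there too, summed to 12.9 versus 5.03 FPKM in mRNA and 5.96 versus 2.75 FPKM in long RNA, with 1 of 3 and none of 1 lower. Of 11 epiblast and naive markers none was lower by the rule in either fraction. Their sums were 1485 versus 1724 FPKM in mRNA and, over the 10 found, 679 versus 746 FPKM in long RNA. Tfcp2l1 came closest to a lower call, with 17.1 versus 8.45 FPKM in long RNA (log2 difference -0.93) and 20.5 versus 12.6 FPKM in mRNA.

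Apoe was the one gene measured in both fractions and called in at least 1. Over the 4 log2(FPKM + 1) values, the genes nearest to it among 12907 were Naca, Stmn1 and Tpi1, at distances of 0.28, 0.31 and 0.41. Naca had 276 versus 116 FPKM in mRNA and 188 versus 95.1 FPKM in long RNA. Stmn1 had 349 versus 151 FPKM in mRNA and 166 versus 83.0 FPKM in long RNA. Tpi1 had 273 versus 161 FPKM and 176 versus 99.2 FPKM. These genes were picked for closeness over these same values, so their likeness to Apoe follows from the choice.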

How the data were processed

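The authors deposited gene tables in FPKM, 1 column per genotype, with p-values and q-values, per the file headers. Tools named in the submitters' processing notes are Cuffdiff, Cufflinks 2.1.1, TopHat2 2.0.10 and bcl2fastq 1.8.4, with the build mm10/GRCm38. For annotation, strand use and library scaling the sources used here give nothing. Both tables were normalized separately, so levels were compared within a table, except for the values between fractions in the closing section. FPKM are not counts and each group is 1 library, so no count model and no test was used.

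Log2 differences used a pseudocount of 1 and a minimum of 1 FPKM with status OK, in Python 3.11.15 with pandas 2.3.3, and the calling was tested on simulated data. Fragments were estimated from the lowest step of FPKM times span in untested rows of 800 to 4000 bases. Row starts were made 1-based. The genes and lists were chosen with earlier results of these data known; promoter motifs were chosen with the sequences in view. Named in the text are all 10 genes and list genes called the same way in both fractions. Up to 4 more per list were named by wild-type mRNA level, and a few were singled out after their values were seen. At the endocytic partners the latter were Lrp2, Lrp8, Vldlr and Cltb. Elsewhere they were Pdgfa, Afp, Ttr, Apoa1, Apoa4, Apob, Apom, Foxa1, T, Cd68, Lyz2, Etv5, Dusp6, Spry2, Spry4, Klf4, Esrrb, Tfcp2l1, Twist1 and Dcn. The lists covered partners in endocytosis, visceral endoderm, parietal endoderm, early signals, opposing epiblast factors, paralogs and markers of other cell types. 1 gene of the early signals that this rule names is not reported here. Alternatives changed the pseudocount, the minimum, the status rule, the centring and the size rule. The short RNA table, the Dnmt1-deficient samples and the DNA samples were not used here.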

Additional observations from a re-analysis of the deposited data

Results flagged for a closer look

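Gata4 was the one gene with the status OK in both tables whose difference had another sign in each fraction. Its log2 difference was 0.90 in mRNA and -0.13 in long RNA, with 1 library per genotype in each. The difference between the fractions was not tested.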

How the results depend on the processing

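Depth and the lack of replicates set the limits: Gata6, Sox17, Sox7, Foxa2 and Pdgfra lay under the minimum in every library. No paired analysis was possible because each group has 1 library. In mRNA, with a pseudocount of 5, the lower genes went from 3 to 1 and the median from -1.32 to -0.61. The share of all measured rows called lower went from 7.93% to 2.53%. Dab2 (-0.71) and Amn (-0.52) then missed the size rule, since this pseudocount shrinks low genes. With no minimum the mRNA median was -0.81 over 6 genes. Gata4 was the 1 higher gene with a pseudocount of 0.1 (1.42) and with a 1.5-fold rule (0.90). Of all measured mRNA rows, 11.8% and 19% were higher under these settings. In long RNA, centring on the median of all measured rows left 0 lower genes, with Apoe at -0.996, while 6.32% of all measured rows were lower. A minimum of 5 FPKM left Apoe alone in long RNA, so the median was -1.04. With a pseudocount of 0.1 and no minimum, chosen after seeing the data, 5 were lower and 1 higher in mRNA (14.4% and 12.7% of all rows), and 4 were lower in long RNA (13% of all rows) with a median of -1.16. None of these settings turned a called direction. With a pseudocount of 5 no gene of the parietal and visceral endoderm, mesendoderm and heart muscle lists was lower in either fraction, which ends the calls of Col4a2, Plat, Slc39a8, Rbp4, Cited1 and T. Lower fibroblast markers went from 8 to 4 and 7 to 4, and lower trophoblast markers from 4 to 1 and 2 to 1. No epiblast and naive marker was then higher in either fraction, which ends the higher calls of Prdm14 and Fgf4. No endocytic partner was then lower in long RNA, which ends the call of Lrp8. With a pseudocount of 0.1, 1 epiblast and naive marker was lower and 1 higher in long RNA, where 11.4% of all measured rows were lower. With the 1.5-fold rule 1 was lower in mRNA and 2 in long RNA, with 2 higher in each. Of all measured rows, 19.4% and 17.3% were then lower.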

Other observations

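Paralogs of the listed genes lay mostly at a few FPKM or below. Of 9 listed, 6 were measured in mRNA and 3 in long RNA, and none was lower or higher by the rule. Foxa1, a relative of Foxa2, had 0.167 FPKM in wild-type and 1.18 FPKM in Drosha-deficient mRNA, and 0.115 versus 0.192 FPKM in long RNA. Sox18, of the same group as Sox7 and Sox17, had 1.25 versus 2.86 FPKM in mRNA and 0.197 versus 0.385 FPKM in long RNA. Pdgfrb, the receptor related to Pdgfra, had 2.34 versus 1.06 FPKM in mRNA and 2.2 versus 0.613 FPKM in long RNA. Dab1, a relative of Dab2 known from neurons, had 5.17 versus 7.60 FPKM in mRNA and 4.49 versus 5.47 FPKM in long RNA. Foxa3 had 1.62 versus 1.33 FPKM in mRNA. The medians were 0.53 in mRNA and -0.38 in long RNA.

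Between the fractions, whose tables were normalized separately, levels can be set side by side only roughly. In wild-type cells the log2(FPKM + 1) of mRNA less that of long RNA was 1.84 for Dab2 and 1.28 for Amn, beside a median of 0.52 over rows measured in both fractions. In Drosha-deficient cells it was 0.92 and 0.25, beside a median of 0.54. Cubn, which works with both, had -0.26 and -0.03. Dab2 and Amn were under the minimum in long RNA and Cubn in both fractions, so none of them is among the rows of these medians. For values under 1 FPKM the pseudocount of 1 holds such differences near 0. Apob, a lipoprotein gene of visceral endoderm named after its values were seen, had 0.150 versus 0.799 FPKM in mRNA and 0.238 versus 0.969 FPKM in long RNA, under the minimum in all 4 libraries and higher in Drosha-deficient cells in both fractions. Apom, also named after its values were seen, had 0.371 versus 1.5 FPKM in mRNA and 0.161 versus 0.777 FPKM in long RNA. Apob and Apom thus had the opposite direction from Apoe, and not every listed apolipoprotein gene did. Apoa1, with the status NOTEST, had 0.267 versus 0.214 FPKM in mRNA and 0.105 versus 0.0440 FPKM in long RNA.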
